A study of Mus musculus with 6 samples.

Results

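A set of 10 genes that mark neuroblasts and early neurons was followed in mouse neural stem cells that carried a hairpin RNA against Sox4, a transcription factor, or a scrambled one. They were fixed by name as Dcx, Elavl3, Elavl4, Stmn2, Map2, Gap43, Dpysl3, Sp8, Cend1 and Igfbpl1, and a member is a row of the authors' deposited table with that symbol. Of the 10 genes, 8 have a row among the 12316 gene rows there, and Dcx and Stmn2 have no row in what was analysed here. The cells were derived from CD-1 mice at E14.5 (embryonic stage), came from a commercial supplier, and were grown as a monolayer on poly-ornithine and laminin with EGF and bFGF. All cells carried a lentiviral short hairpin RNA (shRNA) and were selected with puromycin at 0.5 µg/mL, so the control cells share the transduction and the selection. The labels give 2 libraries of poly(A) RNA for each of Sox4 shRNA 1, Sox4 shRNA 2 and a scrambled shRNA, 6 in all, taken at different passages. No separate derivation of the cells is stated, and the deposited design text speaks of a single Sox4 hairpin.

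The values are 1 comparison made by the authors with Cuffdiff, with 1 level per condition. Its header names neither condition and does not say which hairpins were pooled, so every difference is given as the second condition over the first and no condition is assigned to a hairpin. Levels are in FPKM, which are fragments scaled to transcript length and to all mapped fragments, the unit that Cuffdiff writes in these columns, although the header does not state it. No value per library exists in the table, so the depth is unknown and the levels carry no standard deviation and no n. Called genes are those that carry the authors' significance flag, which went with a q-value (a p-value adjusted over the authors' tests) of at most 0.0494. "Rose" and "fell" are used only of called genes, higher or lower in the second condition. These p-values measure only the spread between the pooled libraries, which may be technical.

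A neuroblast is a young, migrating cell already committed to become a neuron. On leaving the cell cycle such cells switch on proteins that build and move the microtubules of the leading process and growth cone, together with RNA-binding proteins that stabilise and splice neuronal transcripts. The SoxC factors Sox4 and Sox11 are known to activate pan-neuronal genes, Tubb3 and Dcx among them, in neural precursors. EGF and bFGF hold neural stem cells in division, and such cultures can hold some precursors that have begun to differentiate.

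The called members did not all move one way. Sp8 and Cend1 rose about as far as each other, 3.97-fold and 4.13-fold, Elavl4 fell 1.99-fold, and Elavl3, Map2, Dpysl3, Gap43 and Igfbpl1 were not called in the authors' deposited table. Thus 3 of the 8 measured members were called, against 4.99% of all rows. By direction, 2 members rose, against 3.17% of all rows, and 1 fell, against 1.83%. The members were chosen with earlier results of these data known, so this excess over the background is a description. The median log2 fold of the 8 was -0.01, beside 0.0033 over all rows, with 4 of the 8 above zero and 4 below.

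For the 3 called genes, the bases upstream of their transcription starts are shown. The sequences are from RefSeq on GRCm38.p6, each reads 5′ to 3′ on the gene's strand up to the base before the start, and bases inside annotated exons were left off. Capitals mark the matches, on either strand, to 5 short motifs: AACAAAG and AACAAT, forms of the core bound by Sox proteins, CAGCTG and CAGATG, E-boxes bound by proneural factors, and GTGGGAA, the core bound by the Notch effector Rbpj. Sp8 is shown at its most upstream start and Elavl4 at its most upstream start and at the next one, which lies inside the gene.
Sp8, chr12:118846079-118846328, plus strand: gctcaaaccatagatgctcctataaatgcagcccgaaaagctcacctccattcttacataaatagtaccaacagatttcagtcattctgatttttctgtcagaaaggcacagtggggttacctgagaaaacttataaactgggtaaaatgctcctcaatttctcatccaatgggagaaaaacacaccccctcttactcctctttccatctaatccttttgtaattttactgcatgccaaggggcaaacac
Cend1, chr7:141429563-141429743, minus strand: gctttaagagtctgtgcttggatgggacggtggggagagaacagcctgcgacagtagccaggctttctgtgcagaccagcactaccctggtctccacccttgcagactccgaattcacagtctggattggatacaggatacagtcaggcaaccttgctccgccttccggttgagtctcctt
Elavl4, upstream start, chr4:110351912-110352161, minus strand: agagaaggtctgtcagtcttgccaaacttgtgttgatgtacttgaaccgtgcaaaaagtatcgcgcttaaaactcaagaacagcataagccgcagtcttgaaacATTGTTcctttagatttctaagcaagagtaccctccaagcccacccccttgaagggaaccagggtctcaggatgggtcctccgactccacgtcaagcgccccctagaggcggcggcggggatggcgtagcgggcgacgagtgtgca
Elavl4, second start, chr4:110287528-110287777, minus strand: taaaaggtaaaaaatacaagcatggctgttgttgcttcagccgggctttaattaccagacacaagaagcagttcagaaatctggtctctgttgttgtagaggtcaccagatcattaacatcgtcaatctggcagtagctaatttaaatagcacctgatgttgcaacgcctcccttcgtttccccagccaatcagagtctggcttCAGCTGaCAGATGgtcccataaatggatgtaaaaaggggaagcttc

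Neither Sp8 nor Cend1 holds any of the 5 motifs in the 250 bases upstream of an annotated start. The upstream Elavl4 window holds AACAAT on its other strand, 146 bases before the start, and the second holds CAGCTG and CAGATG 1 base apart, starting 46 and 39 bases before it. Of the 2 remaining Elavl4 windows, 1 overlaps the window of the second start, and the other holds CAGATG. Elavl3, which was not called, also holds CAGCTG, 43 bases before its start, and Dcx holds AACAAAG in 1 of its 2 windows. That match lies 9 bases before the start of the window's transcript and inside an annotated exon of Dcx. Of 32851 such windows of all genes, 5.03% hold AACAAAG, 9.42% AACAAT, 13.0% CAGCTG, 14.4% CAGATG and 5.42% GTGGGAA. These are matches of letters in a short window and show no binding. Windows were found for 6 of the 10 genes, without Stmn2, Gap43, Dpysl3 and Igfbpl1.

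Sp8 encodes a zinc finger transcription factor of the Sp family that is needed for interneurons of the olfactory bulb. Its level was 4.10 FPKM in the second condition, against 1.03 FPKM in the first, in the authors' deposited table. That is a log2 fold of 1.99 with p = 5e-05 and q = 0.0030 (Cuffdiff, the authors' deposited table). Sp8 stood at the 23.1st percentile of levels in the second condition and at the 6.33rd in the first. By log2 fold it ranked 26 from the top among all rows, and Cend1 ranked 23. The gene lies at chr12:118846329-118852576 on the plus strand in GENCODE M21, and its longest transcript has 3 exons and 4478 nt.

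Cend1 encodes a membrane protein of the neuronal lineage that promotes exit from the cell cycle. It stood at 4.59 FPKM in the second condition, against 1.11 FPKM in the first, a log2 fold of 2.05 with p = 5e-05 and q = 0.0030 (Cuffdiff, the authors' deposited table). Sp8 and Cend1 thus had nearly the same pair of levels, and their p is the lowest the table holds, shared by 230 rows. Cend1 lies at chr7:141426446-141429491 on the minus strand, has 2 exons and a transcript of 1733 nt. Its upstream neighbour on the same strand, the mitochondrial carrier gene Slc25a22, lies 252 bases upstream of it. Slc25a22, looked up after the values of Cend1 were seen, stood at 4.91 FPKM in the second condition and 4.25 FPKM in the first, with q = 0.771 (Cuffdiff, the authors' deposited table), which is not a call.

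Of the 2 Elavl genes of the set, 1 was called. Elavl3 (HuC) and Elavl4 (HuD) encode RNA-binding proteins of neurons that bind AU-rich and U-rich stretches of messenger RNA, and both are used as markers of cells that have left the cycle. Elavl4 fell to 2.13 FPKM in the second condition, against 4.24 FPKM in the first, a log2 fold of -0.99 with q = 0.00892 (Cuffdiff, the authors' deposited table). With a further minimum of 1 on the absolute log2 fold, the call of Elavl4 was lost by a narrow margin. Elavl3 stood at 3.20 FPKM in the second condition and 3.44 FPKM in the first, a log2 fold of -0.10 with q = 0.896 (Cuffdiff, the authors' deposited table). The difference between the folds of the 2 genes was not tested. Elavl4 lies at chr4:110203722-110351909 and Elavl3 at chr9:22015005-22052023, both on the minus strand, with longest transcripts of 4149 and 5014 nt. Of the 50-base stretches of these transcripts, 0 occur in a transcript of another Elavl gene. In all, 4.37% of the stretches of Elavl3 occur in some other gene, among them Gm49318, whose exons overlap it on the same strand, and 0 of those of Elavl4 do.

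**Figure D1:**
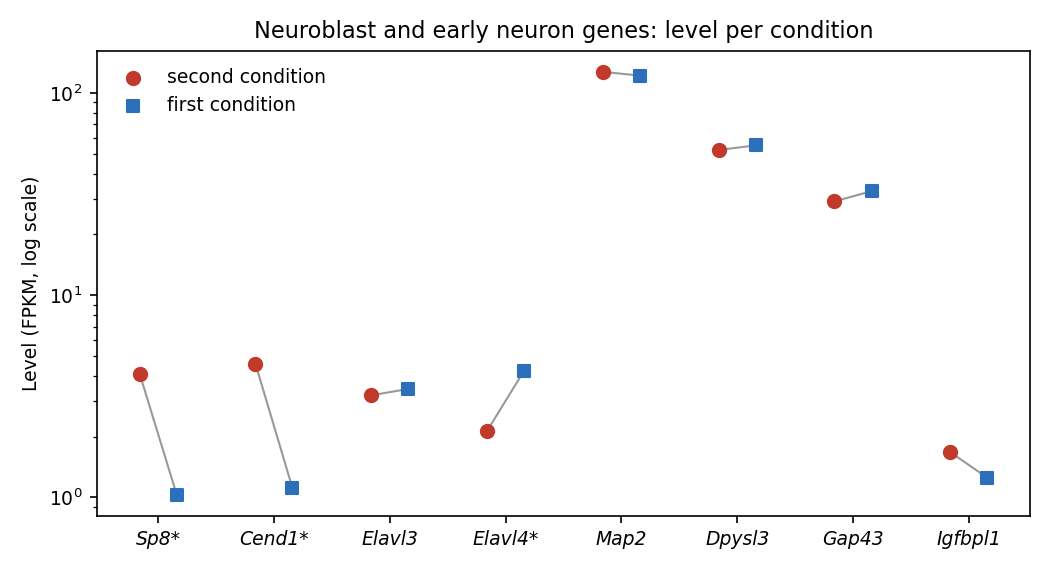
Level of each measured gene in the second condition (red circles) and the first (blue squares), in FPKM on a log axis, as deposited, with 1 value per condition and no error. An asterisk marks a called gene: Sp8 and Cend1 stand near 4 and 1 FPKM, Elavl4 shows the opposite slope, and Map2 is far above the rest in both conditions.

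Genes of the microtubule and growth cone made up the high end of the list. Map2 encodes a microtubule-associated protein of neuronal dendrites and cell bodies, and it stood at 127 FPKM in the second condition and 122 FPKM in the first by the authors' deposited table. The difference was 0.06 on the log2 scale, with q = 0.930 (Cuffdiff, the authors' deposited table). Dpysl3, a collapsin response mediator protein that links guidance signals to the cytoskeleton, stood at 52.4 FPKM in the second condition and 55.1 FPKM in the first, with a log2 fold of -0.07 and q = 0.904 (Cuffdiff, the authors' deposited table). These levels place Map2 at the 94.8th percentile of rows in the second condition and the 94.3rd in the first, and Dpysl3 at the 85.5th and 85.8th. Gap43, a membrane phosphoprotein of growth cones, stood at 29.2 FPKM in the second condition and 32.7 FPKM in the first, with a log2 fold of -0.17 and q = 0.779 (Cuffdiff, the authors' deposited table). None of these 3 genes was called, and their unadjusted p-values were 0.741, 0.677 and 0.430 in the authors' deposited table. A short stretch of Map2 overlaps Gm10558 on the other strand, so reads of the 2 could be mixed if strand was not used.

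Igfbpl1, a secreted protein related to the binding proteins of insulin-like growth factors, was the lowest member in the second condition. It stood at 1.67 FPKM there and 1.25 FPKM in the first condition, with a log2 fold of 0.42 and q = 0.590 (Cuffdiff, the authors' deposited table), which is not a call. The order of levels from high to low was Map2, Dpysl3, Gap43, Cend1, Sp8, Elavl3, Elavl4 and Igfbpl1 in the second condition. In the first condition it was Map2, Dpysl3, Gap43, Elavl4, Elavl3, Igfbpl1, Cend1 and Sp8. The top 3 places were thus filled by the same genes in the same order. With no error per level, neighbours in these orders cannot be called different.

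How large a fold had to be to be called depended on the level. Sp8, Cend1, Elavl3 and Elavl4 fall in the second lowest of 10 equal groups of rows by mean level, from 1.60 to 3.37 FPKM. Of the 1232 rows there, 88 (7.14%) were called, and the smallest absolute log2 fold called was 0.69. Elavl3, at -0.10, was well inside that size. In the lowest group, which holds Igfbpl1, the smallest absolute log2 fold called was 0.78, above the 0.42 of Igfbpl1. In the groups of Gap43, Dpysl3 and Map2 the smallest called were 0.56, 0.56 and 0.55, and no row there with a shift as small as theirs was called. A missing call for these 5 genes therefore does not show that their levels were equal.

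**Figure D2:**
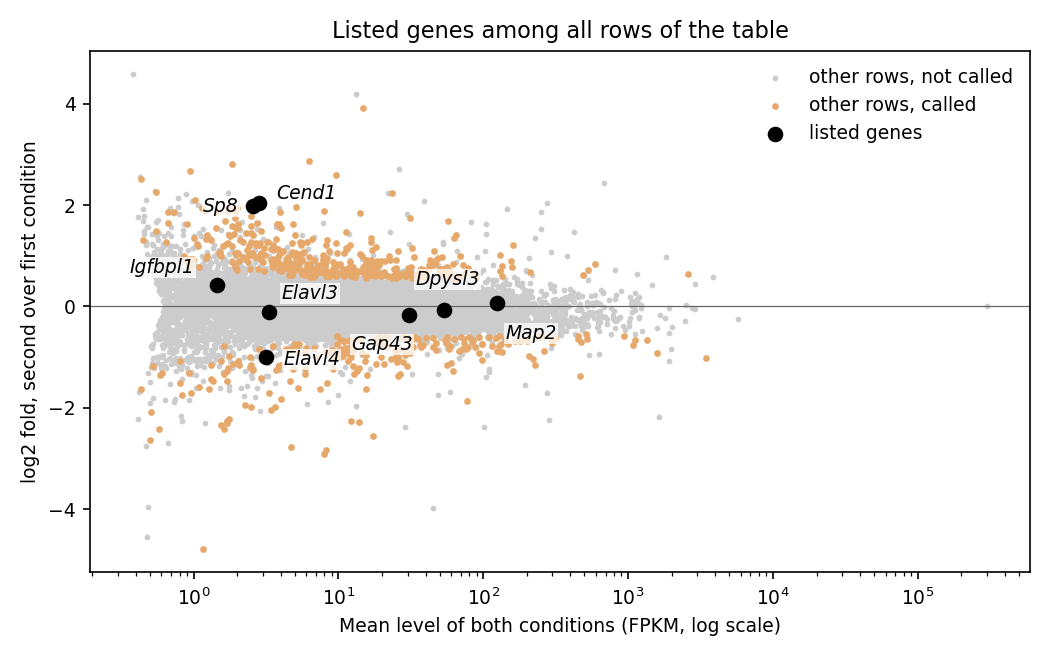
Log2 fold, second over first condition, against the mean level of both conditions in FPKM on a log axis, for all 12316 rows. Grey points were not called, orange points were called, and black points are the 8 listed genes: Sp8 and Cend1 lie near 2, Elavl4 near -1, and the other 5 between -0.17 and 0.42.

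Calls also differed with transcript length over the whole table. Rows were split into 10 equal groups by the length of their longest transcript. In the group of the longest, from 6848 nt, 13.2% rose and 1.32% fell, and in that of the shortest, up to 1231 nt, 0.493% rose and 2.55% fell. None of the 8 members is in either of these groups. Cend1 lies in the second shortest group, where 12 of 1215 rows rose (0.988%), and Sp8 in the eighth, where 35 of 1215 rose (2.88%). Elavl4 lies in the seventh group, where 18 of 1216 rows fell (1.48%). The median log2 fold was -0.09 in the group of Cend1, 0.08 in that of Sp8 and 0.03 in that of Elavl4. The part of transcript length in the members' calls was not tested.

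**Figure D3:**
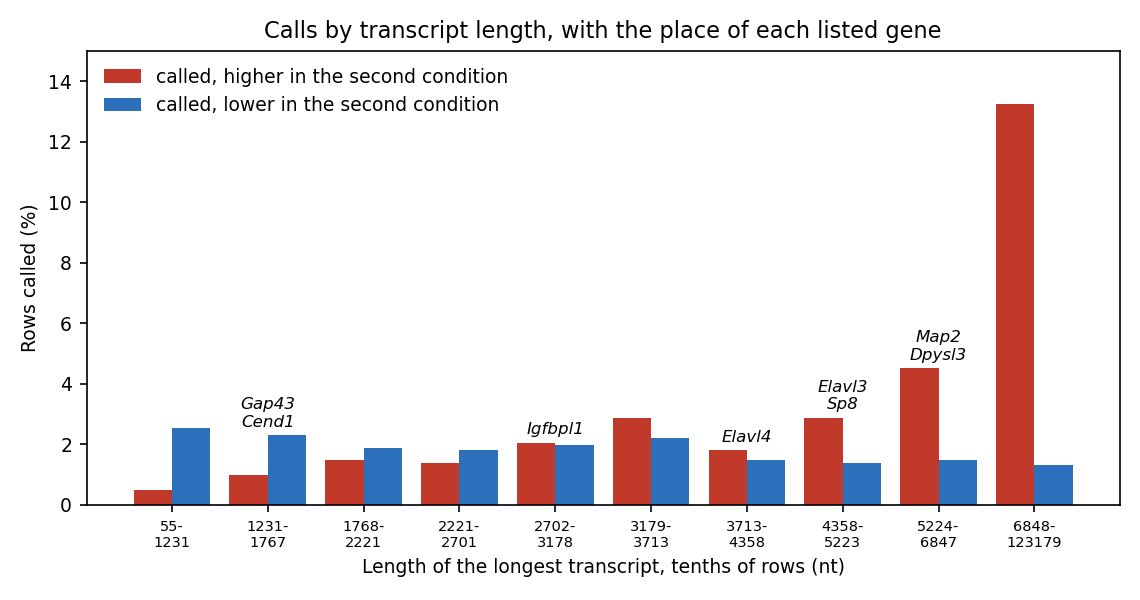
Share of rows called higher (red) and called lower (blue) in the second condition, in percent, in 10 equal groups of rows by the length of the longest transcript in nt. The names above the bars give the group of each listed gene: none lies in the shortest or the longest group, and 13.2% of rows rose in the longest.

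Related genes were read from 12 further lists, among them the members' families and partners, and not all of these genes are particular to neurons. Of their 97 genes, 68 have a row, and of these 3 rose and 6 fell, so that 13.2% were called, against 4.99% of all rows. By direction, 3.17% of all rows rose and 1.83% fell, beside which the counts of each list below are to be read. The median log2 fold of the 68 genes was -0.02. These lists too were chosen with earlier results of these data known, so the excess of calls is a description.

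Among 7 measured genes of neuronal microtubules, 2 rose and 1 fell. Mapt, which encodes the axonal protein tau, fell to 6.53 FPKM in the second condition, against 12.8 FPKM in the first, with q = 0.0030 (Cuffdiff, the authors' deposited table). Map1b rose to 7.16 FPKM in the second condition, against 3.58 FPKM in the first, and Map1a to 35.0 FPKM, against 22.2 FPKM, with q = 0.0030 and q = 0.0199 (Cuffdiff, the authors' deposited table). Map1a and Map1b, microtubule-binding proteins of axons and dendrites, have transcripts of 11825 and 11808 nt, in the group of longest transcripts, where rises were most frequent. Exons of Map1a overlap Ppip5k1 on the other strand. Tubb3, the neuronal beta-tubulin gene, stood at 3.90 FPKM in the second condition and 6.75 FPKM in the first, with a log2 fold of -0.79 and q = 0.0996 (Cuffdiff, the authors' deposited table), which is not a call. The other uncalled genes of the list were Map6, Tubb2a and Tubb2b, with log2 folds of 0.33, 0.04 and 0.01. Of the 7 folds, 5 were positive and 2 negative.

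Single members of 3 other lists fell. Dpysl4, a relative of Dpysl3, fell to 5.69 FPKM in the second condition, against 10.6 FPKM in the first, and was the only 1 of 4 collapsin response mediators called, with q = 0.0162 (Cuffdiff, the authors' deposited table). Basp1, a growth cone membrane protein that resembles Gap43 in function, fell to 64.4 FPKM, against 104 FPKM, with q = 0.0135 (Cuffdiff, the authors' deposited table), as 1 of 6 measured growth cone genes. Gsx1, a homeobox factor of the ventral forebrain, fell to 1.54 FPKM, against 3.44 FPKM, with q = 0.0407 (Cuffdiff, the authors' deposited table), as 1 of 8 measured ventral forebrain genes. Dlx1, Dlx2, Dlx5 and Dlx6, the factors that accompany Sp8 in ventral neuroblasts, have no row in what was analysed here.

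Other early neuron genes gave 2 falls among 14 measured. Rnd2, a small GTPase that acts in the migration of cortical neurons, fell to 17.8 FPKM in the second condition, against 38.1 FPKM in the first, and Nrep fell to 73.0 FPKM, against 122 FPKM, both with q = 0.0030 (Cuffdiff, the authors' deposited table). Exons of Rnd2 overlap Vat1 on the other strand. Among 5 measured IGF-binding proteins, 1 rose: Igfbp3 reached 659 FPKM in the second condition, against 399.6 FPKM in the first, with q = 0.0135 (Cuffdiff, the authors' deposited table). The other lists had no call by Cuffdiff: 2 Elavl genes, 2 doublecortin-like kinases, 3 stathmins, 5 Sp factors, 9 genes of cell cycle exit and partners of Cend1, and 3 proneural factors. Of these, 0, 0, 2, 1, 3 and 0 had an unadjusted p under 0.05. The 5 Sp factors all had positive folds, with a median of 0.36, and the 3 stathmins negative ones, with a median of -0.44. Over all rows, 6219 folds were positive and 6097 negative. By transcript length, the stathmins lie in the shortest and second shortest groups, whose median log2 folds were -0.22 and -0.09. The groups of Sp1, Sp2, Sp3, Sp4 and Sp9 had medians of 0.23, -0.02, 0.03, 0.12 and 0.08. The part of length in these signs was not tested.

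**Figure D4:**
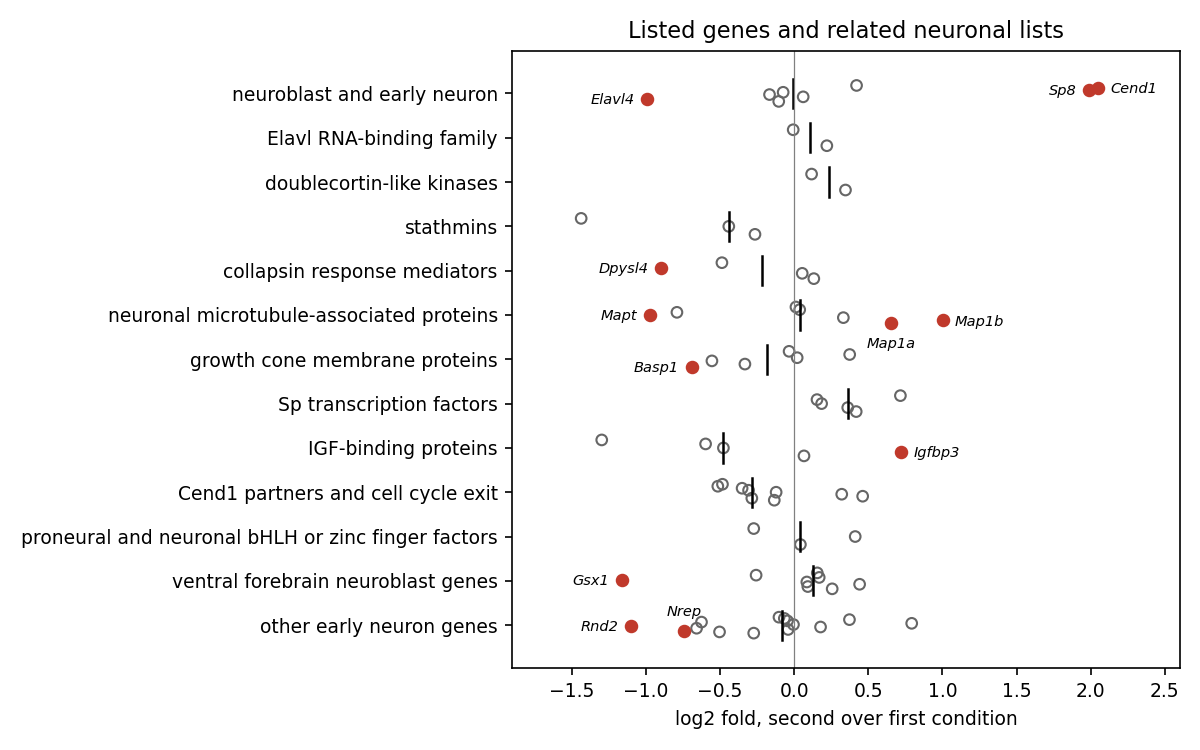
Log2 fold, second over first condition, of every measured gene in the listed set (top) and in 12 related lists. Filled red points were called and are named, open points were not called, and the black bar is the median: the called genes stand on both sides of zero, with Sp8 and Cend1 farthest to the right.

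The targeted gene and the cell type markers give the setting. Sox4 stood at 83.9 FPKM in the second condition and 127 FPKM in the first, with q = 0.0543 (Cuffdiff, the authors' deposited table). That is not a call. Sox11 rose to 20.1 FPKM in the second condition, against 12.6 FPKM in the first, with q = 0.0135 (Cuffdiff, the authors' deposited table). The Sox11 transcript, of 8311 nt, lies in the group of the longest, where 13.2% of rows rose. Exons of Sox4 overlap Gm26735 on the other strand. Markers of neural stem cells had 11 of 12 rows, with levels from 10.6 to 2286 FPKM in the second condition and from 12.4 to 4620 FPKM in the first in the authors' deposited table. Of these 11, 1 rose and 2 fell: Nes stood at 169.8 FPKM in the second condition and 98.1 FPKM in the first, Fabp7 at 2286 and 4620 FPKM, and Hes5 at 14.4 and 37.3 FPKM, in the authors' deposited table. The sum of the 11 was 4397 FPKM in the second condition and 6622 FPKM in the first. Fabp7 alone made up most of both sums, and 5 of the 11 had a positive and 6 a negative fold. Of 12 markers of mature neurons 6 had a row, with sums of 47.8 FPKM in the second condition and 47.7 FPKM in the first, and 0 were called by Cuffdiff, 1 with an unadjusted p under 0.05. The neurofilament genes Nefl, Nefm and Nefh had no row, and the 6 measured markers, of which 4 had a positive and 2 a negative fold, ran from 0.979 to 18.9 FPKM in the second condition and from 0.605 to 23.7 FPKM in the first in the authors' deposited table. Astrocyte markers had 6 of 7 rows, of which 4 fell (Gfap, Aqp4, Agt and Slc1a2) and 1 rose (Aldh1l1). Their sum was 66.4 FPKM in the second condition and 154 FPKM in the first. Of all rows, 3.17% rose and 1.83% fell, beside which the counts of each marker list are to be read. Oligodendrocyte precursor markers had 5 of 6 rows, of which 2 fell, with sums of 917 FPKM in the second condition and 1083 FPKM in the first. Most of these sums was Olig1, which was not called, at 810 FPKM in the second condition and 937 FPKM in the first. Markers of microglia, endothelial cells and fibroblasts, 16 in all, had 0 rows. A missing row, here or for Dcx, Stmn2 and the Dlx genes, does not show that the RNA was absent. Fewer cells of a type and less RNA per cell cannot be told apart in such bulk samples, and the part of these cell types in the members' results was not tested.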

How the data were processed

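Poly(A) RNA of mouse neural stem cells carrying Sox4 shRNA 1, Sox4 shRNA 2 or a scrambled shRNA was sequenced on SOLiD libraries, per the labels' protocols. Per the submitters' processing notes, the tools were TopHat2 2.0.9 with Cufflinks 2.2.1 and Cuffdiff, on mm10. Which annotation was used, and whether strand was, is not stated there. Per the file headers, the deposited table holds a level per condition (taken as FPKM), a log2 fold, a test statistic, which is a score and was not used, a p-value and a q-value. Its 12316 rows, besides 1 blank line, all have the status OK, and 82 name several genes. The deposited fold equals the ratio of the levels to within 1.25e-05 on the log2 scale.

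Nothing was refitted, since no value per library is in the table; the planned tests were the authors' own. The members and lists were chosen with earlier results of these data known. All 8 measured members, and every called gene of the other lists, are named. Slc25a22, Tubb3, the Dlx genes, the named markers and the other uncalled genes named from these lists are extra. These were chosen after values were seen. Alternatives were a q of at most 0.01, Benjamini-Hochberg values recomputed (tested on simulated data), an absolute log2 fold of at least 1, pseudocounts and centring. Gene models are from GENCODE M21 on GRCm38 and gave a transcript length for 98.7% of rows, 461 of them through an older symbol. Work used Python 3.11.15, numpy 2.4.6, pandas 2.3.3, statsmodels 0.14.6 and matplotlib 3.10.9.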

Additional observations from a re-analysis of the deposited data

How the results depend on the processing

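The calls of Sp8 and Cend1 held under each of the 4 alternative call rules. That of Elavl4 held under 3 of them and was lost under the minimum of 1 on the absolute log2 fold, leaving 0 falls among the members, since its fold of -0.99 lies just under that size. At a q of at most 0.01 the rises over all rows numbered 203 (against 390) and the falls 110 (against 225). With a minimum absolute log2 fold of 1 there were 134 rises and 89 falls. Stricter rules must give lower counts. Benjamini-Hochberg values over rows at 1 FPKM or more, or over all rows, left both counts within 1.5 times and changed 0 of 16 member calls. Of 24 alternative log2 folds of members, 0 changed sign and 1 moved by over 1.5 times: that of Igfbpl1 was 0.25 with a pseudocount of 1, against 0.42. The same pseudocount also shrank the folds of the called members, though within 1.5 times. Sp8 came to 1.33, against 1.99, Cend1 to 1.40, against 2.05, and Elavl4 to -0.74, against -0.99. No paired analysis was possible because passages cannot be separated: the authors deposited a single level for a condition. Leaving out a library, blocking on passage and taking either hairpin alone were therefore not run.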
